A study of Mus musculus with 2 samples.

Results

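The p53 pathway was examined in cultured primordial germ cells (PGCs) through 33 genes chosen by name: Trp53, which encodes p53, its inhibitors Mdm2 and Mdm4, and known p53 targets outside the Bcl2 family. Of these 33 genes, 32 had a locus of their own in both libraries and 30 were compared, out of 23320 gene symbols present in both libraries and 18737 compared. The PGCs were sorted from genital ridges of male and female E13.5 embryos by strong GFP from the Oct4-deltaPE-GFP transgene, whose reporter is driven by an Oct4 enhancer active in germ cells. The embryos came from MCH females mated with transgenic males on a C57BL/6J background, and how many embryos were pooled is not given in the sources used here. The cells were infected with lentivirus at a multiplicity of infection (MOI) of 5 and grown for 1 day on gelatin without feeder cells. The control group received the control lentivirus and the Klf9-OE group a lentivirus that expressed the Klf9 coding region from the CSII-EF vector. Which of the study's control vectors was used is not stated for these libraries. Both groups shared the medium, which the labels describe as containing bFGF and the paper as lacking it. The comparison asked which genes lie downstream of KLF9 when PGCs are reprogrammed to pluripotent embryonic germ cells, and in the same study knock-down of p53 served as a positive control for that reprogramming.

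p53 is a transcription factor that is made and degraded continuously in unstressed cells, because the ubiquitin ligase MDM2, with its partner MDM4, binds it and marks it for destruction. DNA damage and other stresses release p53, which then binds paired copies of a short motif and activates genes for cell cycle arrest, apoptosis, DNA repair and metabolism, and Mdm2 itself, which closes a feedback loop. In the germ line, p53 takes part in removing damaged PGCs, and loss of p53 favours germ cell tumours and the conversion of PGCs to pluripotent cells. p53 is controlled mainly as a protein, so RNA levels of its targets and not of Trp53 itself are the usual readout of its activity.

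Each condition was sequenced as 1 library, so no difference below has a replicate check, no test across replicates was possible, and the lentivirus cannot be told apart from the culture that received it. Levels are RPKM, the read number divided by exon length and by library size, which allows genes to be compared per length, and are given with the 95% interval that Cufflinks estimated within each library. The log2 fold change is log2(RPKM + 0.1) in Klf9-OE minus control. Klf9 itself was at 2.27 RPKM in control PGCs and 80.8 RPKM in Klf9-OE PGCs, which matches the labels. The interval widths implied 1.22 reads in the Klf9-OE library for each control read. In that library 89.0% of 1767 genes with 1 to 9 implied reads had an even number of them (95% Wilson interval 87.4 to 90.3%), against 36.4% of 2132 genes in the control library (34.4 to 38.5%). The Klf9-OE intervals may therefore be too narrow and the ratio of 1.22 too high. The counts over all the genes, by role and by list are also given with the Klf9-OE intervals widened by the square root of 2. For 12 of the 30 genes compared, the interval widths followed the read ratio of 1.22 and the RPKM ratio within 10%, and for the others they did not. Those others include Trp53, Ccng1, Plk3, Fas, Pidd1, Aen, Zmat3, Xpc, Polk, Epha2 and Sulf2, whose intervals lay apart between the libraries. The Cufflinks intervals cover error within a library only.

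Among the 33 genes, those with a p53 motif close to the start and those with the largest change are shown first by their promoter sequence. RefSeq promoter windows (GRCm38.p6, 250 bases before each transcript start) were matched for 26 of the 33 genes, in 37 windows. A pair of p53 half-sites, at most 13 bases apart with at most 2 mismatches in all and the central C and G of each half-site kept, was found before Ckap2, Sesn1, Ccng1 and Cdkn1a. The windows held 4, 2, 2 and 2 such pairs, which share a half-site with the pair in capitals, chosen for the fewest mismatches and then the shortest gap, and all are written 5′ to 3′ on the strand of the gene. The Ckap2 window lies at chr8:22185820-22186069 on the minus strand, the Sesn1 window at chr10:41887189-41887438 on the plus strand, the Ccng1 window at chr11:40755287-40755536 on the minus strand and the Cdkn1a window at chr17:29090729-29090978 on the plus strand.
Ckap2: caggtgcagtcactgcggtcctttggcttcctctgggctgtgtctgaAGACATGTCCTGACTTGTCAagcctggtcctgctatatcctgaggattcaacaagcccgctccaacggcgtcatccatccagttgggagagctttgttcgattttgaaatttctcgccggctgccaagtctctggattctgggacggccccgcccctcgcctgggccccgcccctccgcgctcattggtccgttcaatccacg
Sesn1: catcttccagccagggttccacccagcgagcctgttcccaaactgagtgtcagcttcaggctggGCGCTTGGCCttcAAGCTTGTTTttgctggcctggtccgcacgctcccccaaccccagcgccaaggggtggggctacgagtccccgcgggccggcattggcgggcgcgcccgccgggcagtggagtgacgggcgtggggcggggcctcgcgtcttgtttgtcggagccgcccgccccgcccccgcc
Ccng1: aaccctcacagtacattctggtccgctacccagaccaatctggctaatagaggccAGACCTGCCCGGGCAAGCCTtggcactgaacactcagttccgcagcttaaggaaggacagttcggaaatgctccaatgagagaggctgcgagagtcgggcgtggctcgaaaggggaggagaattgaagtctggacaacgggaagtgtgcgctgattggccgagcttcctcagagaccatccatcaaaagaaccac
Cdkn1a: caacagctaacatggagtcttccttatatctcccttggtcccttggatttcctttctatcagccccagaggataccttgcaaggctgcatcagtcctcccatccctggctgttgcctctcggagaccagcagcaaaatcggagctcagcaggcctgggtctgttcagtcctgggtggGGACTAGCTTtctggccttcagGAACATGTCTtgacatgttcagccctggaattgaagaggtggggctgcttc

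Counted back from the base before the start as -1, the pairs in capitals ran from -203 to -184 in Ckap2, with no gap and 2 mismatches, and from -186 to -164 in Sesn1, with a gap of 3 bases and 2 mismatches. In Ccng1 they ran from -195 to -176, with no gap and 1 mismatch. In Cdkn1a they ran from -73 to -42, with a gap of 12 bases and 0 mismatches, and the other pair was left unmarked. Sesn1 and Cdkn1a each had a further window at another start, which held neither a pair nor an exact half-site. The pair was present in 4 of the 37 windows (10.8%), against 3.34% of 32851 windows of all genes and 3.05% of 11501 windows of genes with a mean of at least 1 RPKM. An exact single half-site was present in 9 windows (24.3%), those of Aen, Ccng1, Cdkn1a, Ckap2, Ei24, Mdm2, Polk (at another start than the one shown), Sesn1 and Trp53, against 7.13% and 5.68%. Of these 9 genes, 5 were higher in Klf9-OE with intervals that did not overlap and 0 were lower, and their median log2 fold change was 0.26. The 14 compared genes whose windows lacked an exact half-site had a median of 0.25, with 6 higher and 2 lower. The medians with and without the single half-site were thus nearly equal. The 4 genes with a pair had a median of 0.12, with 2 higher and 0 lower. The 19 compared genes without a pair had a median of 0.27, with 9 higher and 2 lower. Over the 12244 genes with a mean of at least 1 RPKM, 14.5% were higher and 20.2% lower with intervals apart. Whether the motif bears on the differences was not tested. A match describes the letters only and is no measurement of p53 binding.

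The windows of Fas, Plk3, Polk and Gdf15 are shown because these are, with Perp, the 5 genes with the largest change. Capitals mark the GC box GGGCGG, read on either strand, a motif bound by the Sp and Klf families of zinc finger factors, to which KLF9 belongs. The Fas window lies at chr19:34290409-34290658 on the plus strand, the Plk3 window at chr4:117133964-117134213 on the minus strand, the Polk window at chr13:96542580-96542829 on the minus strand and the Gdf15 window at chr8:70632096-70632345 on the minus strand.
Fas: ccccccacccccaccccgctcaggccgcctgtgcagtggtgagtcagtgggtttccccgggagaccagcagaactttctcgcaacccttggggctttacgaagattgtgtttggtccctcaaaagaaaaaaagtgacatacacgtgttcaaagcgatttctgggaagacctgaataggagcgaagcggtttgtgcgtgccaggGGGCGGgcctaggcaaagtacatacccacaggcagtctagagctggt
Plk3: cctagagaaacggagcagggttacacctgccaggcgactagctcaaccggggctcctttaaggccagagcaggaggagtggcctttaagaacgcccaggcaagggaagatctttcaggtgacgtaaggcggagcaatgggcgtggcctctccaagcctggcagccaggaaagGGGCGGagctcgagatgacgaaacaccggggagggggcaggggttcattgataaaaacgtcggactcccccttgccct
Polk: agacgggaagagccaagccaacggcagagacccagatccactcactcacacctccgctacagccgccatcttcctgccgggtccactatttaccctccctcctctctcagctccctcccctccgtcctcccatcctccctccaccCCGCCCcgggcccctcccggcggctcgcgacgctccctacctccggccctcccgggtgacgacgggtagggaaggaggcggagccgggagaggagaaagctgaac
Gdf15: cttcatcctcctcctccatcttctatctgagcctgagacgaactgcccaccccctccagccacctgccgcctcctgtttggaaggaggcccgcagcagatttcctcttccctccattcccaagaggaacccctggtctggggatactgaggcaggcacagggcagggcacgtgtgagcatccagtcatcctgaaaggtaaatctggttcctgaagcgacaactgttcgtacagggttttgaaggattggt

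Fas, Plk3 and Polk each held 1 GC box in these windows and Gdf15 held 0. The Polk and Gdf15 windows do not adjoin the measured loci, chr13:96480689-96542485 and chr8:70629394-70631635, but lie before RefSeq starts further upstream. Over the 37 windows, 19 held a GC box (51.4%), against 32.7% of the windows of all genes and 58.1% of those of genes with a mean of at least 1 RPKM. The motif CACCC, also read on either strand and also bound by Klf factors, was found in 21 windows (56.8%), against 52.0% and 57.4%. Beside other expressed genes, the p53 pathway genes thus had no more windows with GC boxes or CACCC. Of the 17 compared genes with a GC box, 9 were higher with intervals apart and 2 lower, and of the 6 without, 2 were higher and 0 lower. Their median log2 fold changes were 0.26 and 0.30. Of the 14 genes with CACCC, 8 were higher and 2 lower, with a median of 0.31. Of the 9 without, 3 were higher and 0 lower, with a median of 0.15. The shares over genes with a mean of at least 1 RPKM were 14.5% higher and 20.2% lower.

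Across the 30 genes compared, 22 had a higher RPKM in Klf9-OE PGCs and 8 a lower one. For 14 genes the Klf9-OE interval lay wholly above the control interval, a call made for 14.5% of the 12244 genes with a mean of at least 1 RPKM, a level all 30 genes had. For 3 genes it lay wholly below, against 20.2% of those 12244 genes, and for 13 the intervals overlapped. Overlap is a strict criterion, since the ratio itself had an interval that left out 1 for 3 of those 13 genes, Mdm2 (1.01 to 1.12), Gdf15 (1.07 to 2.52) and Ei24 (0.816 to 0.966). With the Klf9-OE intervals widened, 10 genes were higher (11.6% of the 12244 genes) and 3 lower (16.8%). Fas, Plk3 and Perp were at least 2-fold higher and 0 genes were at least 2-fold lower, against 3.4% and 3.34% of the genes with a mean of at least 1 RPKM and 9.83% and 9.44% of all 18737 genes. A ratio of at least 1.5 was reached by 7 genes in the higher direction and 0 in the lower, against 6.67% and 7.79%. The median log2 fold change was 0.23, beside -0.026 over the 12244 genes. The log2 fold change of 14 of the 30 genes was within 0.25 of 0, and the range ran from -0.56 for Pidd1 to 2.13 for Fas.

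**Figure D1:**
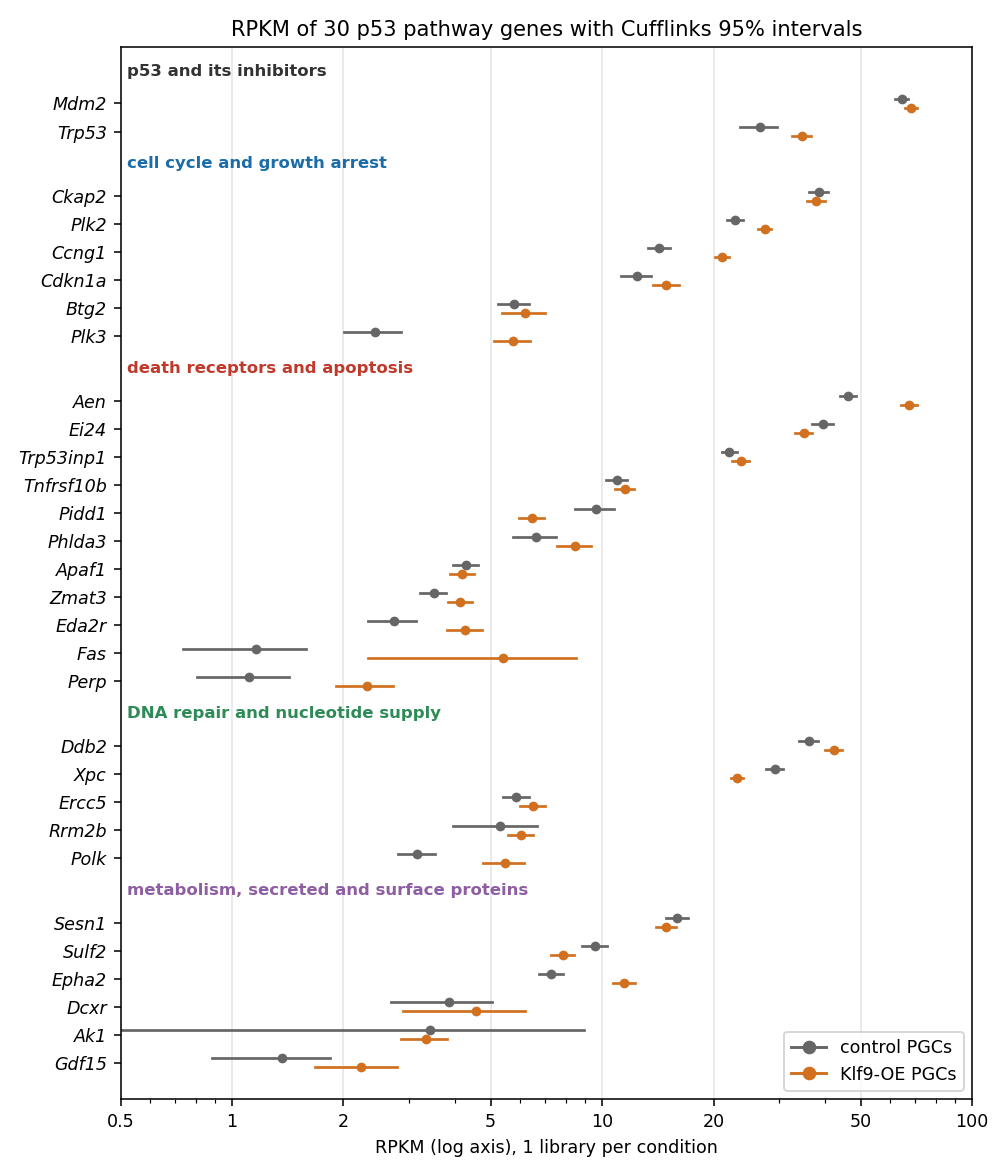
Level of each of the 30 genes in RPKM (log axis) in control PGCs (grey) and Klf9-OE PGCs (orange), grouped by role and ordered by control level, where points are the estimate of 1 library and lines its Cufflinks 95% interval, cut at 0.5 RPKM for Ak1. Mdm2 was highest at 64.5 and 68.5 RPKM, and the lines of Plk3, Perp, Ccng1 and Aen lie apart whereas those of Mdm2, Ckap2 and Apaf1 overlap.

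Trp53 (chr11:69580359-69591873, mm10) was measured at 26.6 RPKM (95% interval 23.6 to 29.7) in control PGCs and at 34.7 RPKM (32.6 to 36.7) in Klf9-OE PGCs. The intervals did not overlap, and the log2 fold change was 0.38, or 30.1% more RNA. Mdm2, the ubiquitin ligase that is both inhibitor and target of p53, was the most abundant of the 30 genes, at 64.5 RPKM (61.9 to 67.1) in control and 68.5 RPKM (66.0 to 70.9) in Klf9-OE. These intervals overlapped, and the log2 fold change of Mdm2 was 0.09. Mdm4, the MDM2 partner that masks the activation domain of p53, was at 33.02 RPKM (31.9 to 34.1) in control PGCs. Its estimate failed in the Klf9-OE library, where the file lists 38.9 RPKM, so Mdm4 was not compared. The intervals were thus apart for Trp53 and overlapped for its feedback target Mdm2.

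Of the cell cycle and growth arrest genes, 6 were compared, 4 were higher with intervals apart, 3 of them also with widened intervals, and 0 were lower. The shares over genes with a mean of at least 1 RPKM were 14.5% higher and 20.2% lower. With widened intervals these shares were 11.6% and 16.8%. Cdkn1a, which encodes the cyclin-dependent kinase inhibitor p21 and is the classical arrest target of p53, was at 12.4 RPKM (11.3 to 13.6) in control and 14.9 RPKM (13.7 to 16.1) in Klf9-OE. Its log2 fold change was 0.26, and its intervals, which lay just apart, overlapped once the Klf9-OE interval was widened. Ccng1, which encodes cyclin G1, a regulator of MDM2 through a phosphatase, was at 14.3 RPKM (13.3 to 15.3) in control and 21.1 RPKM (20.2 to 21.96) in Klf9-OE. At a log2 fold change of 0.56 its intervals were well apart, and its promoter is among those shown above with a pair of half-sites. Plk3, a stress-activated polo-like kinase on chr4:117128655-117133952, was at 2.43 RPKM (2.01 to 2.86) in control and 5.75 RPKM (5.12 to 6.39) in Klf9-OE. This 2.36-fold difference (interval of the ratio 1.92 to 2.90) was the second largest of the 30 genes.

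Plk2, a related polo-like kinase that acts at the centrosome, was at 22.8 RPKM (21.7 to 24.0) in control and 27.6 RPKM (26.4 to 28.7) in Klf9-OE, with intervals apart and a log2 fold change of 0.27. Btg2, an antiproliferative cofactor of mRNA deadenylation, was at 5.79 RPKM (5.24 to 6.33) and 6.18 RPKM (5.36 to 7.01), which overlapped. Ckap2, a spindle protein, was at 38.4 RPKM (36.2 to 40.6) and 37.8 RPKM (35.8 to 39.9), which overlapped although its promoter holds a pair of half-sites. Gtse1, a microtubule protein that restrains p53 in G2 phase, could not be compared. It was at 22.2 RPKM (20.9 to 23.6) in control PGCs (chr15:85859707-85876573), but the Klf9-OE library lists it only in 1 locus together with the neighbouring gene Trmu (chr15:85859707-85897393), at 30.5 RPKM (29.0 to 32.1). Trmu alone was at 5.30 RPKM (0 to 10.6) in control PGCs.

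The death receptor and apoptosis genes were the largest group, with 11 compared, 6 higher and 1 lower with intervals apart, and 3 higher and 1 lower with widened intervals. Over genes with a mean of at least 1 RPKM, 14.5% were higher and 20.2% lower, or 11.6% and 16.8% with widened intervals. Fas, the receptor for Fas ligand (chr19:34290659-34327770), was at 1.16 RPKM (0.736 to 1.59) in control and 5.41 RPKM (2.33 to 8.49) in Klf9-OE. The 4.66-fold difference was the largest of the 30 genes and also among the least precise, since the interval of the ratio ran from 2.37 to 9.17 and the intervals overlapped after widening. The interval widths implied 29.8 reads for Fas in control and 12.4 in Klf9-OE, fewer although the RPKM was higher. Eda2r, a TNF receptor family member, was at 2.74 RPKM (2.33 to 3.14) in control and 4.27 RPKM (3.81 to 4.74) in Klf9-OE. Its intervals stayed apart after widening, and its log2 fold change was 0.62. Tnfrsf10b, the mouse receptor for TRAIL, was at 11.0 RPKM (10.2 to 11.7) and 11.5 RPKM (10.9 to 12.2), with overlapping intervals. The 3 receptors of the group thus differed in behaviour, with the most abundant of them the one at a log2 fold change of 0.07.

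Among the other apoptosis genes, Pidd1, a death domain scaffold that activates caspase-2, was lower in Klf9-OE with intervals apart. It was at 9.61 RPKM (8.45 to 10.8) in control and 6.48 RPKM (5.97 to 6.98) in Klf9-OE, and its log2 fold change of -0.56 was the lowest of the 30 genes. Apaf1, the core of the apoptosome, was at 4.29 RPKM (3.95 to 4.63) and 4.19 RPKM (3.88 to 4.50), which overlapped. Perp, a desmosomal membrane protein and p53 apoptosis effector (chr10:18845071-18857072), was at 1.11 RPKM (0.80 to 1.42) in control and 2.32 RPKM (1.91 to 2.72) in Klf9-OE. The 2.08-fold difference had a ratio interval from 1.499 to 2.89, and the intervals stayed apart after widening. Aen, an apoptosis-enhancing nuclease, was the most abundant gene of the group, at 46.1 RPKM (43.9 to 48.4) in control and 67.5 RPKM (64.1 to 70.8) in Klf9-OE. Its log2 fold change was 0.55, so Aen and Ccng1 differed by nearly the same factor. The interval widths of both genes were among those that did not follow the read and RPKM ratios.

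Ei24, an endoplasmic reticulum protein of autophagy, was at 39.5 RPKM (36.9 to 42.1) in control and 35.1 RPKM (33.2 to 36.9) in Klf9-OE, where the intervals only just overlapped at a log2 fold change of -0.17. Phlda3, which blocks AKT at the membrane, was at 6.64 RPKM (5.76 to 7.53) in control and 8.44 RPKM (7.54 to 9.33) in Klf9-OE. Zmat3, an RNA-binding zinc finger protein, was at 3.51 RPKM (3.23 to 3.79) in control and 4.13 RPKM (3.83 to 4.44) in Klf9-OE. The intervals of Phlda3 and Zmat3 lay narrowly apart and overlapped after widening, at log2 fold changes of 0.34 and 0.23. Trp53inp1, a stress protein that promotes autophagy and p53 phosphorylation, was at 22.1 RPKM (21.04 to 23.1) and 23.7 RPKM (22.5 to 24.9), which overlapped.

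**Figure D2:**
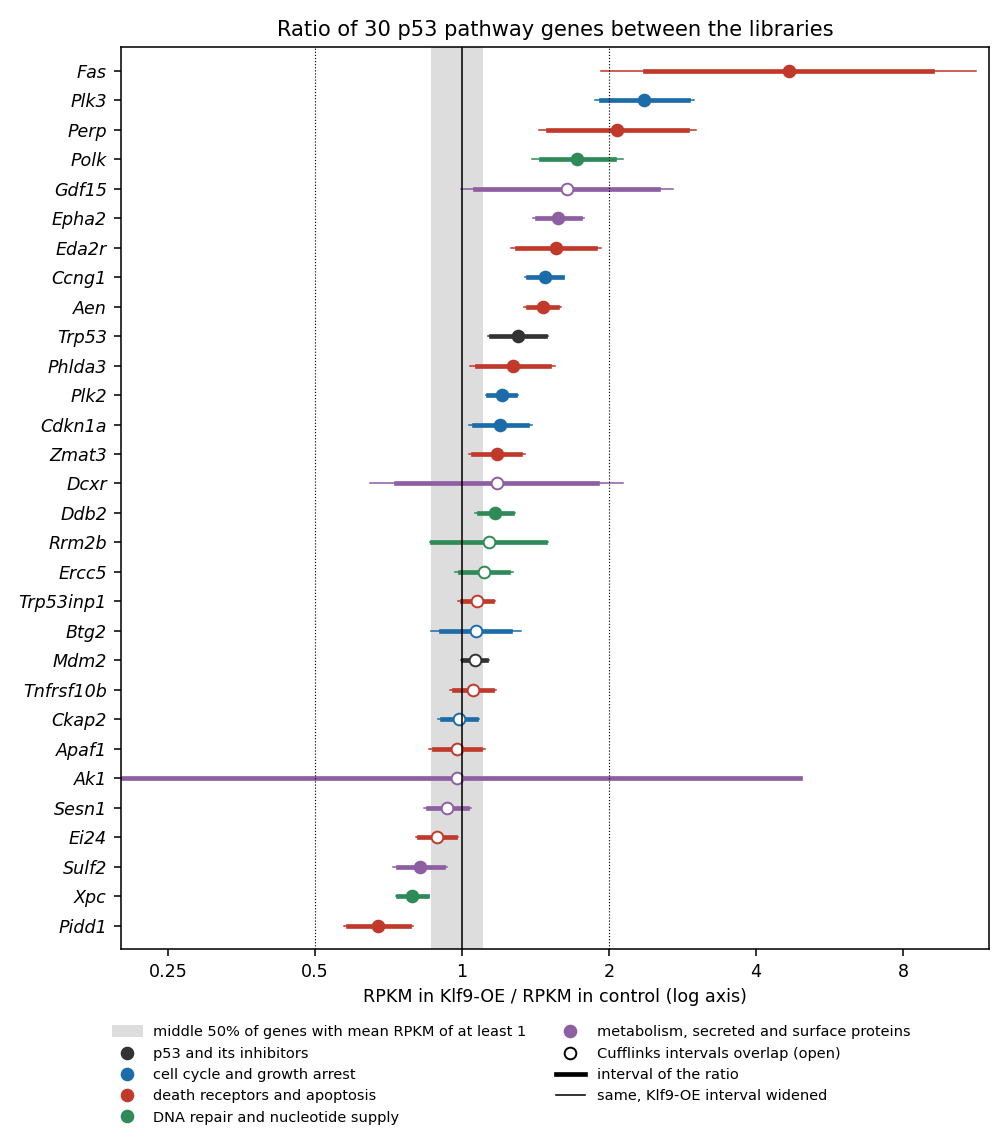
Ratio of RPKM in Klf9-OE to control for each of the 30 genes (log axis), coloured by role, where thick lines are the interval of the ratio from both Cufflinks intervals, thin lines the same with the Klf9-OE interval widened, and open points genes whose Cufflinks intervals overlap. Fas at 4.66, Plk3 at 2.36 and Perp at 2.08 lie beyond the dotted line at 2, and the filled points to the left of 1 are Pidd1, Xpc and Sulf2. The line of Ak1 is cut at the left edge.

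Among the 5 DNA repair and nucleotide supply genes, 2 were higher and 1 lower with intervals apart, and these counts were the same with widened intervals. They are 40% and 20% of the group, beside 14.5% and 20.2% of genes with a mean of at least 1 RPKM. With widened intervals the latter shares were 11.6% and 16.8%. The share of genes lower was thus near that over all such genes. The genes of nucleotide excision repair differed in direction. Ddb2, which recognises ultraviolet lesions in chromatin, was at 36.1 RPKM (34.0 to 38.2) in control and 42.2 RPKM (40.1 to 44.4) in Klf9-OE, with intervals apart and a log2 fold change of 0.23. Xpc, which takes over the lesion from it, was at 29.2 RPKM (27.6 to 30.8) in control and 23.1 RPKM (22.2 to 24.0) in Klf9-OE, lower with intervals apart at a log2 fold change of -0.34. Ercc5, the nuclease that cuts 3′ of the lesion, was at 5.87 RPKM (5.39 to 6.35) and 6.51 RPKM (5.999 to 7.02), which overlapped.

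Polk, a DNA polymerase that copies across damaged bases, was at 3.17 RPKM (2.81 to 3.52) in control and 5.46 RPKM (4.76 to 6.16) in Klf9-OE. Its ratio of 1.72 (1.45 to 2.04) was the largest of the repair genes, and its intervals stayed apart after widening. The interval widths implied 313 reads for Polk in control and 245 in Klf9-OE, fewer although the RPKM was higher. Rrm2b, the p53-induced subunit of ribonucleotide reductase that supplies deoxynucleotides outside S phase, was at 5.31 RPKM (3.95 to 6.67) and 6.03 RPKM (5.56 to 6.49), which overlapped.

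In the last group, of metabolic, secreted and surface proteins, 6 genes were compared, 1 was higher and 1 lower with intervals apart, and both calls were kept with widened intervals. Each is 16.7% of the group, near the 14.5% higher and 20.2% lower of genes with a mean of at least 1 RPKM. With widened intervals the latter shares were 11.6% and 16.8%. Epha2, an ephrin receptor tyrosine kinase, was at 7.29 RPKM (6.75 to 7.82) in control and 11.5 RPKM (10.7 to 12.3) in Klf9-OE, a log2 fold change of 0.65. Sulf2, a secreted enzyme that removes sulfate groups from heparan sulfate, was at 9.55 RPKM (8.81 to 10.3) in control and 7.85 RPKM (7.29 to 8.41) in Klf9-OE, a log2 fold change of -0.28. Gdf15, a secreted TGF-beta family member made in many kinds of stress, was at 1.36 RPKM (0.885 to 1.84) in control and 2.23 RPKM (1.67 to 2.79) in Klf9-OE. Its log2 fold change of 0.67 was larger than that of Epha2, but at this low level the intervals overlapped.

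Sesn1, a sestrin that restrains mTORC1, was at 15.9 RPKM (14.9 to 17.0) in control and 14.9 RPKM (14.0 to 15.8) in Klf9-OE, which overlapped despite the pair of half-sites in its promoter. Dcxr, a dicarbonyl and L-xylulose reductase, was at 3.87 RPKM (2.69 to 5.05) and 4.55 RPKM (2.91 to 6.20), and Ak1, an adenylate kinase, at 3.42 RPKM (0 to 8.93) and 3.34 RPKM (2.86 to 3.82). The control interval of Ak1 reached 0, so no difference in it was detectable. Pltp, which encodes phospholipid transfer protein, was listed at 0 in both libraries and was not compared.

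Read by level, the weakly expressed genes had the highest median. The 10 genes with a mean under 5 RPKM had a median log2 fold change of 0.65, with 6 higher and 0 lower with intervals apart, whereas all genes from 1 to 5 RPKM had a median of -0.0066 and 14.5% higher. The 11 genes from 5 to 20 RPKM had a median of 0.15, with 4 higher and 2 lower, beside -0.018 and 15.2% higher over all genes of that range. The 9 genes above 20 RPKM had a median of 0.10, with 4 higher and 1 lower, beside -0.040 and 13.9%. Over all 12244 genes with a mean of at least 1 RPKM, 20.2% were lower with intervals apart. The summed level of the 30 genes was 456 RPKM in control and 517 RPKM in Klf9-OE.

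**Figure D3:**
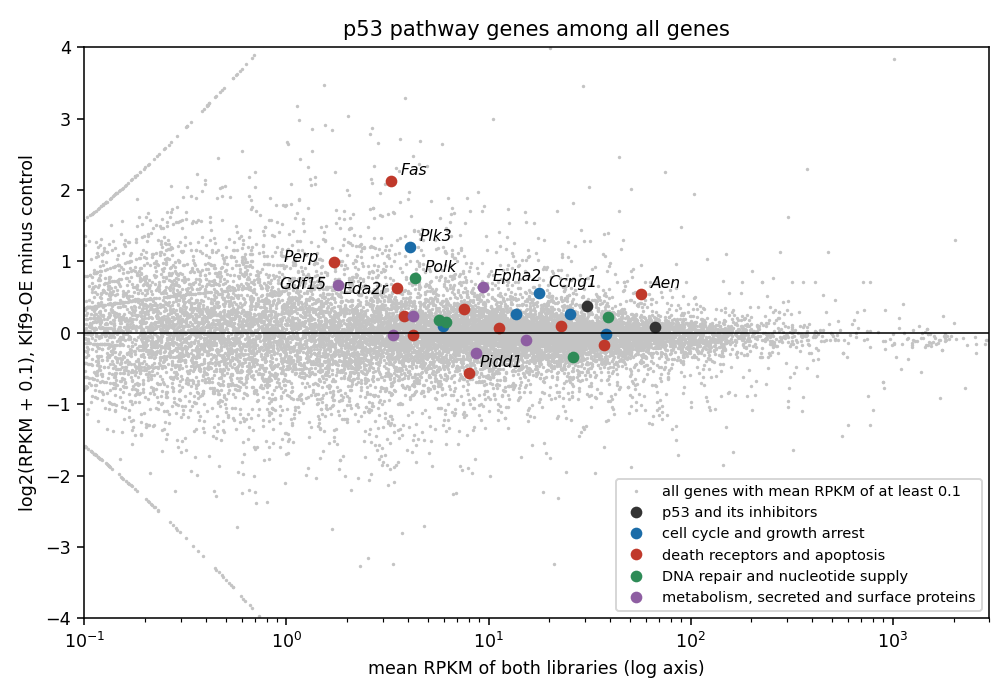
Log2 fold change, Klf9-OE minus control on log2(RPKM + 0.1), against the mean RPKM of both libraries (log axis) for all genes with a mean of at least 0.1 RPKM (grey) and for the 30 genes coloured by role, each point being 1 gene. Genes with a log2 fold change beyond 0.5 in either direction are named, and Pidd1 at -0.56 is the only one of them below 0. The diagonal streaks at low RPKM are genes listed at 0 in 1 library.

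Other genes of the pathway, taken from lists that hold none of the 33, had the following counts and medians. Of 33 kinases and modifiers upstream of p53, 32 were compared, 6 were higher and 3 lower with intervals apart (5 and 2 with widened intervals), and the median log2 fold change was -0.0054. These are 18.8% and 9.38% of the list, beside 14.5% and 20.2% of the genes with a mean of at least 1 RPKM. In this list Setd7, a lysine methyltransferase with p53 among its substrates, was the gene that differed at least 2-fold, at 2.28 RPKM (2.04 to 2.52) in control and 6.31 RPKM (5.42 to 7.21) in Klf9-OE. At least 2-fold higher were 9.83% of all 18737 genes compared and 3.4% of genes with a mean of at least 1 RPKM. Of 43 further p53 targets, 40 were compared, 6 were higher and 7 lower (5 and 7 with widened intervals), and the median was -0.016. At 15% and 17.5% of the 40, these shares were near those over all genes, 14.5% and 20.2%.

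Among those further targets, 3 with a mean of at least 1 RPKM were at least 2-fold lower with intervals apart. Without regard to level or intervals, 1 of the 40 was at least 2-fold higher and 5 were lower. Over all 18737 genes compared, these shares were 9.83% and 9.44%, and over genes with a mean of at least 1 RPKM 3.4% and 3.34%. Ddit4, a stress-induced inhibitor of mTORC1, was at 55.0 RPKM (52.6 to 57.3) in control and 26.6 RPKM (24.8 to 28.5) in Klf9-OE. Trp53i11 was at 4.10 RPKM (3.58 to 4.63) and 1.58 RPKM (1.28 to 1.87), and Cpt1c, a carnitine palmitoyltransferase isoform, at 7.92 RPKM (6.71 to 9.12) and 3.75 RPKM (3.27 to 4.23). Ptprv, a receptor-type tyrosine phosphatase, went the other way, from 0.893 RPKM (0.739 to 1.05) in control to 1.85 RPKM (1.46 to 2.23) in Klf9-OE. Of 30 cell cycle genes repressed through p21 and the DREAM complex when p53 is active, 29 were compared. In them 12 were higher and 4 lower with intervals apart (10 and 2 with widened intervals), which is 41.4% and 13.8% beside 14.5% and 20.2% of all genes with a mean of at least 1 RPKM. The median was 0.11, and 0 differed by at least 2-fold. Cyclins, kinases and other mitotic genes make up most of this list.

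**Figure D4:**
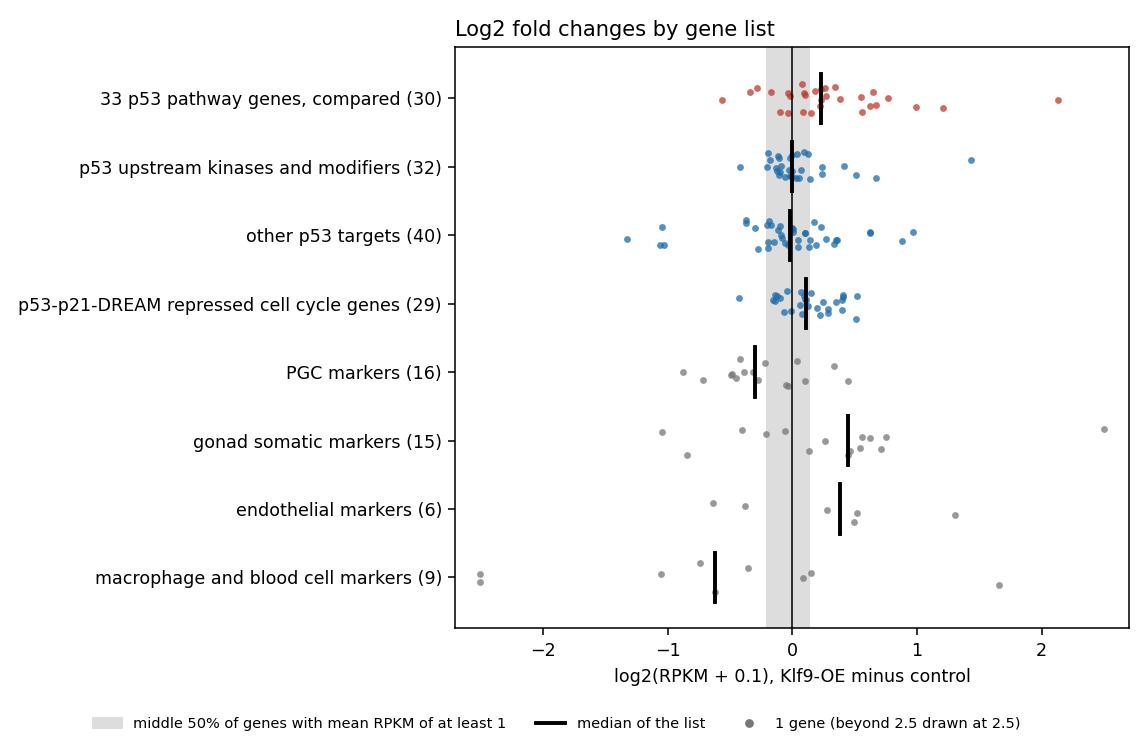
Log2 fold change, Klf9-OE minus control on log2(RPKM + 0.1), of each compared gene in the 33 p53 pathway genes (red), other p53 lists (blue) and cell type marker lists (grey), where the black bar is the median of the list and the number in brackets how many genes were compared. The grey band, the middle 50% of single expressed genes, is a scale for the points and not for the bars, which stand at 0.23 for the p53 pathway genes, -0.0054 for the upstream genes, -0.016 for other p53 targets and 0.11 for DREAM genes.

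Markers of cell types also differed between the libraries. Of 16 PGC markers, 10 were lower and 3 higher with intervals apart (10 and 2 with widened intervals). These are 62.5% and 18.8% of the list, beside 20.2% and 14.5% of the genes with a mean of at least 1 RPKM. The summed level of the 16 was 2466 RPKM in control and 2237 RPKM in Klf9-OE. The lowest marker of each library was at 4.85 and 4.34 RPKM, so all 16 were detected in both. Of 16 gonad somatic markers, 15 were compared and 6 were higher and 1 lower (5 and 1 with widened intervals), with a summed level of 35.0 RPKM in control and 48.0 RPKM in Klf9-OE. Star was listed at 0 in control and was at 2.39 RPKM (2.12 to 2.67) in Klf9-OE, and Wt1 (3.41 and 5.64 RPKM), Amh (5.99 and 9.29), Lhx9 (1.34 and 2.32) and Col1a1 (9.09 and 12.5) were higher with intervals apart. Sox9 went the other way, at 2.04 RPKM (1.76 to 2.31) in control and 1.09 RPKM (0.906 to 1.27) in Klf9-OE, apart also after widening. Tcf21 was at 0 in Klf9-OE and at 0.11 RPKM in control, and Foxl2 was at 0.31 and 0.26 RPKM. Of the 6 endothelial markers, 2 were higher and 1 lower (2 and 0 with widened intervals), and they summed to 20.3 and 30.8 RPKM. Cdh5 was at 1.995 RPKM (1.66 to 2.33) in control and 5.09 RPKM (4.57 to 5.60) in Klf9-OE, Pecam1, also made by germ cells, at 16.8 and 24.2 RPKM, and Emcn at 0.03 and 0 RPKM. Tek was lower, at 0.735 RPKM in control and 0.439 RPKM in Klf9-OE, with intervals apart that overlapped after widening. Of 14 macrophage and blood cell markers, 9 were compared, 1 was higher and 2 were lower, also with widened intervals, they summed to 6.62 and 5.97 RPKM, and the defining markers Ptprc and Adgre1 were under 0.1 RPKM in both libraries. Csf1r was at 0.307 RPKM (0.196 to 0.417) in control and 1.18 RPKM (0.834 to 1.53) in Klf9-OE, Lyz2 at 1.001 RPKM in control and listed at 0 in Klf9-OE, and Cd68 at 3.69 and 4.11 RPKM. With intervals apart, 40% of the compared gonad somatic, 33.3% of the endothelial and 11.1% of the macrophage and blood cell markers were higher. The shares that were lower were 6.67%, 16.7% and 22.2%. Over all 18737 genes compared, 11.2% were higher and 14.4% lower. The part of such cells in the levels of Fas, Perp, Eda2r, Epha2 and the other p53 pathway genes was not tested, and in bulk RNA fewer cells of a type cannot be told apart from less RNA per cell.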

How the data were processed

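PGC libraries were made from total RNA with the TruSeq RNA sample prep kit v2 and sequenced as single-end reads. For each locus the authors deposited the FPKM that Cufflinks estimated from reads aligned by TopHat2 and Bowtie (mm10), with a 95% interval. For single-end reads FPKM equals RPKM. Tool versions are not given in the sources used here, and the Cuffdiff results were not used. Read totals are not in the files, so relative depth and read numbers were taken from the interval widths. Intervals cover within-library error only.

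RPKM was summed over loci with the same symbol, and loci whose estimate failed (6 symbols) were left out. Genes were compared by ratio, by log2(RPKM + 0.1) and by whether the intervals overlapped, with no test, as each group was 1 library. The members and gene lists were chosen with earlier results of these data known. The text names all 33 members, genes of the other p53 lists with a mean of at least 1 RPKM, intervals apart and a 2-fold or larger difference, Klf9, and markers at or near 0. Markers at higher levels, such as Star, Sox9, Pecam1, Cdh5, Tek and Csf1r, were named after their values were seen.

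The alternatives were other scalings, pseudocounts, ratio thresholds, a minimum level, a single locus per symbol, widened intervals and, chosen after seeing the data, failed estimates included. The steps were tested on simulated data. Promoter sequences came from RefSeq (GRCm38.p6). Calculations were run in Python 3.11.15 (pandas 2.3.3, numpy 2.4.6, scipy 1.17.1) and plots drawn with matplotlib 3.10.9.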

Additional observations from a re-analysis of the deposited data

How the results depend on the processing

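The number of p53 pathway genes at least 2-fold higher, 3, was 1 with a pseudocount of 1 in the ratio, which left Fas, and 7 with a ratio of at least 1.5. A pseudocount shrinks ratios of low levels by construction. The other counts stayed within 1.5 times of the reported ones under each alternative run. Genes higher with intervals apart numbered 14 and ranged from 10 with widened Klf9-OE intervals to 16 with both libraries scaled to the same sum, genes lower stayed at 3, and the median log2 fold change ranged from 0.19 with a pseudocount of 1 to 0.29 with the same sum. Scaling to the same upper quartile or sum moved the median of all genes to 0.0012 and 0.036. Of the 30 genes, 22 lay above 0 as reported, 23 with the same upper quartile and 25 with the same sum. All 150 recomputed log2 fold changes of single genes moved by less than their interval. With failed estimates included, an alternative chosen after seeing the data, the 2-fold and interval counts were the same and 23 genes lay above 0. No paired analysis was possible because each condition is 1 library, and for the same reason no library could be left out. The depth limits genes near 1 RPKM such as Gdf15, whose intervals are wide.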
